A study of Mus musculus with 32 samples.

Results

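A set of 9 genes that build or mark the macrophage was followed through activation and necroptosis stimulation. They are 7 transcription factor genes, those of PU.1 (Spi1), C/EBPα, C/EBPβ and C/EBPδ (Cebpa, Cebpb, Cebpd), c-Maf (Maf) and the Krüppel-like factors KLF2 and KLF4 (Klf2, Klf4), and the genes of the receptors CSF1R (Csf1r) and MerTK (Mertk). They were taken from the arrays by name: each probe whose gene name was one of the 9 was used, which gave 12 probes, 3 for Csf1r, 2 for Maf and 1 for each other gene. The 9 genes were among 16051 genes tested. All 12 probes were well above background on all 32 arrays and none was saturated.

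PU.1, encoded by Spi1, is the Ets family factor that commits progenitors to the myeloid lineage and holds open many macrophage enhancers, and Csf1r is among its targets. C/EBPα, C/EBPβ and C/EBPδ are leucine zipper factors. C/EBPα acts mainly in myeloid commitment, whereas C/EBPβ and C/EBPδ are known as factors induced by inflammatory stimuli. c-Maf is a macrophage factor linked to IL-10 expression, and KLF2 and KLF4 are zinc finger factors linked to restraint of inflammatory gene expression and to monocyte differentiation. CSF1R is the receptor for M-CSF, on which cultured macrophages depend for survival, and MerTK is a receptor tyrosine kinase that mediates the uptake of dying cells.

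Bone marrow-derived macrophages (BMDMs) of WT (C57BL/6) mice and of Ifnar1-/- mice, which lack a chain of the type I interferon receptor, were grown in M-CSF (5 ng/mL for 6 days in the labels), so that the ligand of CSF1R was part of every culture. They were left untreated or treated for 6 h with LPS, a ligand of TLR4 (100 ng/mL in the labels), with IFNβ (1000 U/mL in the labels), with the caspase inhibitor zVAD, with LPS+zVAD or IFNβ+zVAD, which is the necroptosis stimulation, or with either of these combinations plus Nec-1, an inhibitor of RipK1. The study's text gives other doses of LPS and IFNβ, and a longer culture, than the labels. The 2 genotypes and 8 conditions made 16 groups of 2 arrays, and nothing in the labels says whether the 2 came from separate animals, so that p-values measure the spread between these arrays.

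RNA was measured on 1-colour Agilent mouse arrays. Levels below are quantile-normalized log2 intensities, and they are compared only between arrays for the same probe. A gene was called when its Benjamini-Hochberg adjusted p, over all genes tested in that comparison, was under 0.05 in limma; every adjusted p below is from that fit, and each error is a standard error (SE) from it. Between 45.4% and 78.3% of probes on an array were well above background. In WT cells this share was 70.0% to 78.3% on the 4 arrays without a stimulus (untreated or zVAD) and 55.6% to 68.8% on the 12 with LPS or IFNβ, and the median intensity before normalization was 87.2 to 106.7 against 47.5 to 76.1. The signal of an array thus moved with stimulation in WT cells, and its part in the WT changes below was not tested beyond the scalings compared. The 4 slides each held the 8 conditions of 1 genotype and 1 replicate number, so that genotype and slide cannot be told apart at 1 condition, whereas a change from untreated cells is measured within slides. The summed level of 10 macrophage marker genes lay between 19.9 and 20.5 on the WT arrays and between 20.0 and 20.3 on the Ifnar1-/- arrays. Among the WT arrays it was 20.4 to 20.5 without a stimulus and 19.9 to 20.2 with one. Csf1r, itself 1 of the 9 genes, is among these 10 markers, and its own WT arrays split the same way. The sum is therefore not independent of Csf1r. Of 3 Ifnar1 probes, each was lower in its median over the Ifnar1-/- arrays than over the WT arrays (6.81 against 8.51, 11.8 against 13.2 and 8.14 against 10.6), but all 3 still gave a signal well above background on 15 or 16 of 16 Ifnar1-/- arrays.

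One group stood apart. The 2 Ifnar1-/- arrays of LPS+zVAD+Nec-1 differed by a median of 0.512 (log2) over genes, against 0.207 to 0.384 in the other 15 groups. Replicate 1 correlated best with replicate 1 of Ifnar1-/- LPS (r = 0.981), and replicate 2 with replicate 2 of Ifnar1-/- IFNβ+zVAD+Nec-1 (r = 0.993). Results that rest on this group are therefore given with and without each of its arrays.

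The sequences behind 3 of the genes are shown because the measurement of Spi1 rests on a single probe and because Klf2 and Klf4, at the values given below, were the genes of the 9 that differed most between LPS and LPS+zVAD in Ifnar1-/- cells. The Spi1 probe is a 60-mer placed by the array files on mm9 chr2:90939665-90953452. Its bases cover a much longer stretch of genome, so that it crosses at least 1 exon junction.
Spi1 probe: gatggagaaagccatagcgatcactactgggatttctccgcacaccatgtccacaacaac
The 250 bases before the start of Klf2 (GRCm38.p6, chr8:72318812-72319061, plus strand) and of Klf4 (GRCm38.p6, chr4:55532476-55532725, minus strand) are from RefSeq. Capitals mark the GC box GGGCGG on either strand and the MEF2 motif, which is CTA and TAG with any 4 bases between them.
Klf2 upstream: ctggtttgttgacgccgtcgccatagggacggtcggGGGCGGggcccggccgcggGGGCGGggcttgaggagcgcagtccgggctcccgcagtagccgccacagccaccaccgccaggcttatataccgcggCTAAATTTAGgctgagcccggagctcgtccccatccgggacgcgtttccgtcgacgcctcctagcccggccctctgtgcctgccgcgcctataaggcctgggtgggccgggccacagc
Klf4 upstream: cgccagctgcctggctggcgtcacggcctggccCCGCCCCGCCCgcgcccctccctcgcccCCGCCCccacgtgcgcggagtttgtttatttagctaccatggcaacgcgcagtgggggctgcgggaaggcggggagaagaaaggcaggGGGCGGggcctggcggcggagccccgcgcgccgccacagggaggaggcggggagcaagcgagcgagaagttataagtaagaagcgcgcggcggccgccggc
The Klf2 stretch held 2 GC boxes and 1 MEF2 motif, which began 118 bases before the start, and the Klf4 stretch held 4 GC boxes, of which 2 overlap by 1 base, and no MEF2 motif. On both strands of the same 250 bases of 32851 promoters, 32.7% held a GC box and 3.2% a MEF2 motif. Neither stretch held the letters searched for an ISRE (TTTC, any 2 bases and TTTC, in 2.98% of promoters), NF-kB (GGGA, any base and TTTCC, 0.356%), C/EBP (TTNCNNAA, 36.8%), ETS (GGAAGT, 19.7%) or AP-1 (TGANTCA, 6.75%). GC content was 71.2% for Klf2 and 74% for Klf4, against a median of 52.4%. Upstream stretches were taken for 5 of the 9 genes (Cebpa, Cebpb, Klf2, Klf4 and Mertk). Csf1r was left out of this search.

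In WT BMDMs, LPS called 7 of the 9 genes (41.2% of all genes were called in that comparison): Spi1, Cebpb and Cebpd rose and Cebpa, Klf2, Klf4 and Mertk fell. IFNβ called 3 (35.3% of all genes): Cebpa fell, and Cebpb and Klf4 rose. zVAD alone called none of the 9 in limma, in this fit or under any alternative, although 4 had an unadjusted p under 0.05 (0.00623% of all genes were called). Its largest changes were -1.35 for Mertk, 0.96 for Cebpb and -0.88 for both Cebpa and Maf. LPS+zVAD called 6 (50.9%), with Cebpb and Klf4 higher and Cebpa, Maf, Csf1r and Mertk lower. IFNβ+zVAD called 3 (37.5%), LPS+zVAD+Nec-1 called 8 (40.9%) and IFNβ+zVAD+Nec-1 called 3 (31.7%).

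In Ifnar1-/- BMDMs, LPS called 7 of the 9 genes (24.8% of all genes), with Spi1, Cebpb and Cebpd higher and Cebpa, Klf2, Klf4 and Mertk lower, and LPS+zVAD also called 7 (28.2%), with Cebpb, Cebpd, Klf2 and Klf4 higher and Cebpa, Maf and Mertk lower. IFNβ called none of the 9, and none had an unadjusted p under 0.05 (0% of all genes were called). The changes with IFNβ in this genotype lay between -0.14 and 0.18 (log2), and the widest of their 95% intervals ran from -0.97 to 0.94 and belonged to Mertk. zVAD also called none, with none at an unadjusted p under 0.05 (0%), and IFNβ+zVAD called none, with 2 at an unadjusted p under 0.05 (0.00623%). LPS+zVAD+Nec-1 called none, with 3 at an unadjusted p under 0.05 (1.31%). Without its replicate 2 it called 5 (14.7% of all genes), namely Spi1, Cebpb and Cebpd higher and Cebpa and Klf4 lower, and without its replicate 1 it called Mertk only (0.978%). IFNβ+zVAD+Nec-1 called 1, Mertk (1.76%). The 7 treatments of a genotype share the same 2 untreated arrays.

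**Figure D1:**
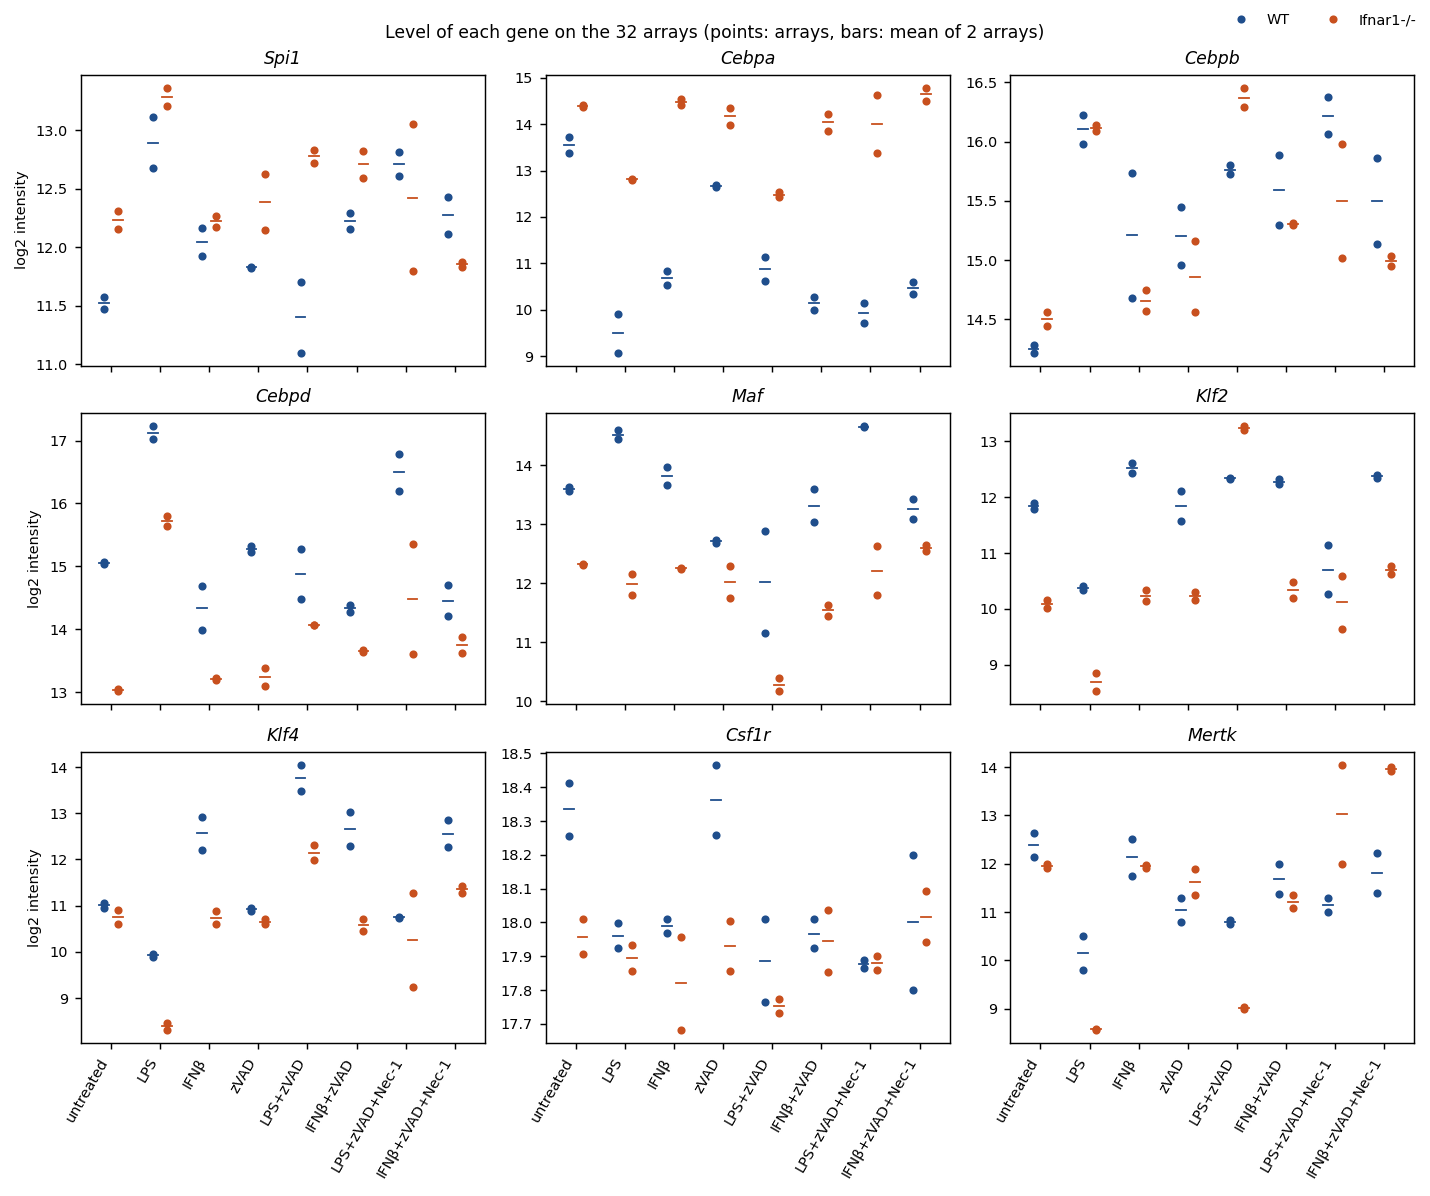
Level of each of the 9 genes (log2 intensity) in the 8 conditions, with a point for each array, blue for WT and orange for Ifnar1-/-, and a bar for the mean of 2 arrays. All Cebpa points of stimulated WT cells lie between 9.08 and 11.15, and the Ifnar1-/- points between 12.43 and 14.79.

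**Figure D2:**
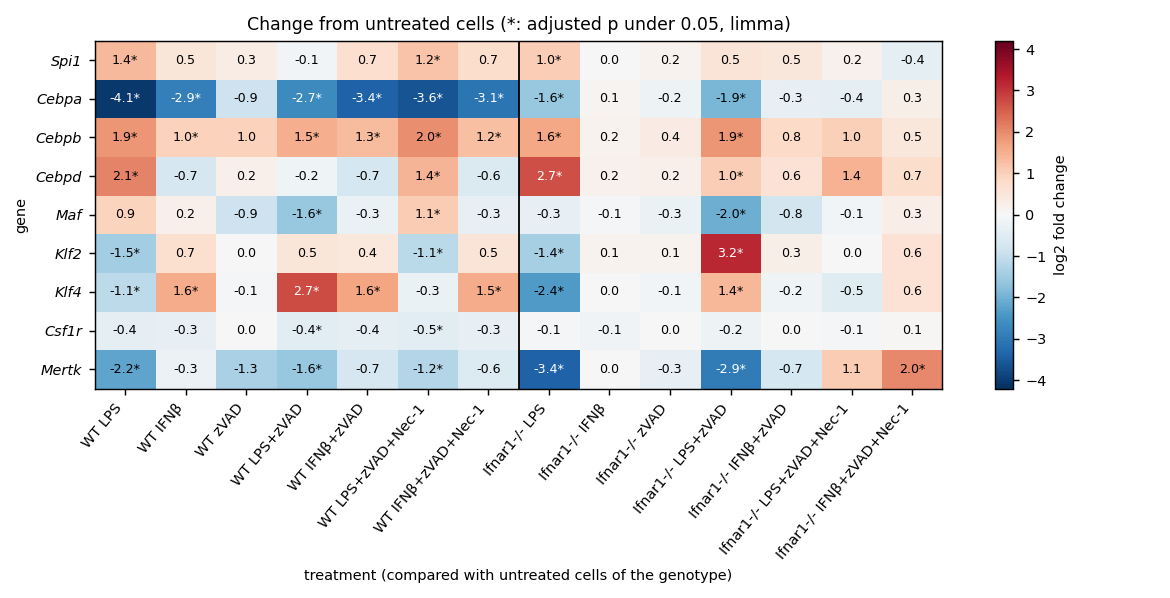
Change of each gene from untreated cells (log2 fold change, rounded to 1 decimal) for the 7 treatments of WT and of Ifnar1-/- BMDMs, with an asterisk where the gene was called. Cebpa is called in all 6 stimulated WT groups, and no gene is called in Ifnar1-/- cells given IFNβ or zVAD.

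Spi1 rose with LPS in both genotypes. Its levels were 11.57 and 11.48 in untreated WT cells and 13.11 and 12.67 with LPS, and 12.16 and 12.31 against 13.36 and 13.20 in Ifnar1-/- cells. The arrays did not overlap in either genotype. The rise was 2.58-fold in WT (log2 1.37, SE 0.29, adjusted p = 0.000872) and 2.07-fold in Ifnar1-/- cells (log2 1.05, SE 0.29, adjusted p = 0.0119), and the second was not called without replicate 1 of untreated (adjusted p = 0.0818) or of LPS (adjusted p = 0.0847). In WT cells given LPS+zVAD the levels, 11.71 and 11.10, lay on both sides of the untreated ones, and with Nec-1 added they were 12.81 and 12.61, 2.28-fold above untreated (adjusted p = 0.00282). Over the 8 WT groups Spi1 was highest with LPS (mean 12.89) and lowest with LPS+zVAD (mean 11.40), but no neighbours in this order were further apart than the 95% half-width of a difference, 0.607. IFNβ, zVAD, IFNβ+zVAD and IFNβ+zVAD+Nec-1 gave changes between 0.30 and 0.75 in WT cells that were not called. Those with IFNβ+zVAD and IFNβ+zVAD+Nec-1 were called when the slide entered the fit as a block (adjusted p = 0.0429 and 0.0348). Both were also called with the 75th percentile shift (0.0244 and 0.0276) and without the pair that stood apart (0.0108 and 0.00819).

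Cebpa, the gene of the myeloid commitment factor C/EBPα, fell in every stimulated WT group. Its levels were 13.39 and 13.72 in untreated WT cells, 9.08 and 9.90 with LPS, 10.54 and 10.83 with IFNβ, 10.00 and 10.28 with IFNβ+zVAD, and 10.61 and 11.15 with LPS+zVAD. With Nec-1 added they were 9.71 and 10.15 for LPS and 10.35 and 10.60 for IFNβ. No stimulated WT array reached the level of an array without stimulus, the lowest of which was 12.65, with zVAD alone. The fall was 16.7-fold with LPS (log2 -4.06, SE 0.32, adjusted p = 5.57e-08), 7.3-fold with IFNβ (adjusted p = 1.58e-06) and 6.38-fold with LPS+zVAD (adjusted p = 1.44e-06). With IFNβ+zVAD it was 10.6-fold, with LPS+zVAD+Nec-1 12.3-fold and with IFNβ+zVAD+Nec-1 8.44-fold, with adjusted p-values from 1.5e-07 to 8.45e-07. All 6 calls were kept under every alternative fit and without any 1 array. zVAD alone gave -0.88, which was not called (adjusted p = 0.675). The summed level of 3 T cell markers (Cd3e, Lck and Cd8a) split the WT arrays the same way, at 10.32 to 11.54 without a stimulus and 12.36 to 14.19 with one, and was 10.36 to 11.27 on the Ifnar1-/- arrays. Of the 3, Lck alone was fully apart (7.49 to 7.93 against 11.05 to 13.95 in WT), while Cd3e (10.00 to 11.38 against 10.45 to 11.87) and Cd8a overlapped. Their part in the fall of Cebpa was not tested.

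Cebpa in Ifnar1-/- cells fell with the 2 treatments that held LPS without Nec-1. It was 14.37 and 14.40 in untreated cells, 12.82 and 12.80 with LPS, and 12.43 and 12.53 with LPS+zVAD. The arrays did not overlap, and the falls were 2.99-fold (log2 -1.58, SE 0.32, adjusted p = 0.00148) and 3.75-fold (log2 -1.91, adjusted p = 0.0003). The IFNβ arrays, 14.42 and 14.55, were above the untreated ones. The 2 arrays of LPS+zVAD+Nec-1 were 13.39 and 14.63, 1 below and 1 above the untreated pair.

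Cebpb rose in every stimulated WT group, and with LPS in both genotypes. Untreated WT cells gave 14.22 and 14.28, LPS 15.98 and 16.23 and LPS+zVAD 15.72 and 15.80, without overlap. zVAD alone gave 14.96 and 15.45, also above untreated, and this change of 0.96 was not called. The rise was 3.61-fold with LPS (log2 1.85, SE 0.33, adjusted p = 0.000215), 2.85-fold with LPS+zVAD (adjusted p = 0.000873) and 3.91-fold with LPS+zVAD+Nec-1 (adjusted p = 0.00013). The IFNβ arrays were 14.68 and 15.74, both above untreated but 1.05 apart, and the rise of 1.94-fold (adjusted p = 0.032) was not called without replicate 2 of IFNβ (adjusted p = 0.42) or without either untreated array (0.117 and 0.101), nor under 3 of the 8 alternative fits. The rises with IFNβ+zVAD (2.53-fold, adjusted p = 0.00381) and IFNβ+zVAD+Nec-1 (2.37-fold, adjusted p = 0.00755) were likewise not called without replicate 2 of the treated pair (adjusted p = 0.0609 and 0.108), the last also not with only the arrays compared (0.0686). Cebpb in Ifnar1-/- cells went from 14.56 and 14.45 to 16.09 and 16.14 with LPS (3.06-fold, adjusted p = 0.0017) and to 16.29 and 16.45 with LPS+zVAD (3.65-fold, adjusted p = 0.000488). With LPS+zVAD+Nec-1 its difference, with arrays of 15.98 and 15.02, was not called (adjusted p = 0.168; 0.0317 with the slide as a block).

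Cebpd rose with LPS, and less or not at all with LPS+zVAD. In WT cells it was 15.07 and 15.04 untreated, 17.23 and 17.02 with LPS, 15.27 and 14.47 with LPS+zVAD, and 16.79 and 16.20 with LPS+zVAD+Nec-1. The LPS+zVAD pair overlapped the untreated pair, and the other 2 pairs lay above it. The rise was 4.19-fold with LPS (log2 2.07, SE 0.38, adjusted p = 0.000266) and 2.72-fold with LPS+zVAD+Nec-1 (adjusted p = 0.00522), the second not called without replicate 1 of that pair (adjusted p = 0.0722). Cebpd in Ifnar1-/- cells was 13.02 and 13.04 untreated, 15.80 and 15.65 with LPS and 14.07 on both arrays with LPS+zVAD. The rise with LPS was 6.46-fold (log2 2.69, SE 0.38, adjusted p = 0.000108). That with LPS+zVAD was 2.06-fold (adjusted p = 0.0489) and was not called without any 1 of the 4 arrays (adjusted p = 0.142 to 0.164) nor under 2 of the 8 alternative fits. The Ifnar1-/- arrays of LPS+zVAD+Nec-1, 15.35 and 13.60, were both above untreated, and the change of 1.45 was not called (adjusted p = 0.0706; 0.0335 with the slide as a block). With IFNβ, IFNβ+zVAD and IFNβ+zVAD+Nec-1 the WT arrays, from 13.98 to 14.70, were all below the untreated WT arrays. The changes of -0.72, -0.73 and -0.60 were not called. Without the pair that stood apart, those with IFNβ (adjusted p = 0.0332) and IFNβ+zVAD (0.0300) were called.

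Maf, the c-Maf gene, fell with LPS+zVAD in both genotypes. In WT cells it was 13.63 and 13.56 untreated and 12.88 and 11.16 with LPS+zVAD, both lower but 1.72 apart, and in Ifnar1-/- cells 12.31 and 12.33 against 10.17 and 10.39. The fall was 4.12-fold in Ifnar1-/- cells (log2 -2.04, SE 0.37, adjusted p = 0.000548) and 2.98-fold in WT cells (log2 -1.58, SE 0.37, adjusted p = 0.00149), where it was not called without replicate 2 of LPS+zVAD (adjusted p = 0.0655) or with only the arrays compared (0.0903). The second Maf probe, which matches another transcript, fell by 2.75 in WT (adjusted p = 0.000142) and fell by 2.63 in Ifnar1-/- cells (adjusted p = 0.000886). With LPS the change of the first probe in WT cells, 0.92, was not called (adjusted p = 0.0541). It was called with the slide as a block (0.0193), without the pair that stood apart (0.0425) and with only the arrays compared (0.0366). With the 75th percentile shift it was 1.47 (adjusted p = 0.00468). The levels of the WT arrays with LPS were 14.60 and 14.44, above untreated. With LPS+zVAD+Nec-1 they were 14.65 and 14.66, and the rise of 2.09-fold (adjusted p = 0.028) was not called without any 1 of the 4 arrays (adjusted p = 0.0819 to 0.112) nor under 2 of the 8 alternative fits. The second probe gave 0.03 and -0.24 for these 2 comparisons (adjusted p = 0.970 and 0.750), so that a rise of Maf with LPS rests on the first probe. With zVAD alone the WT arrays of the first probe, 12.69 and 12.74, were below untreated. The changes, -0.88 on the first probe and -1.35 on the second, were not called.

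Klf2 moved in opposite directions with LPS and with LPS+zVAD in Ifnar1-/- cells. It was 10.02 and 10.15 untreated, 8.53 and 8.85 with LPS, and 13.27 and 13.21 with LPS+zVAD. The 3 pairs were fully apart, and the LPS+zVAD pair was the highest of all 16 groups. The fall with LPS was 2.64-fold (log2 -1.40, SE 0.27, adjusted p = 0.000959) and the rise with LPS+zVAD 8.89-fold (log2 3.15, SE 0.27, adjusted p = 1.16e-06). In WT cells Klf2 fell from 11.79 and 11.90 to 10.41 and 10.34 with LPS (2.76-fold, adjusted p = 0.000251). With LPS+zVAD it was 12.34 and 12.33, above both untreated arrays, and this change of 0.49 was not called (adjusted p = 0.14). With LPS+zVAD+Nec-1 it fell 2.2-fold (adjusted p = 0.0022), on arrays of 10.26 and 11.14, and the call was lost without replicate 1 of that pair (adjusted p = 0.0746) and with only the arrays compared (0.0744). IFNβ gave 0.68, which was not called (adjusted p = 0.0551). It was called with the slide as a block (0.027), without the pair that stood apart (0.0209) and with the 75th percentile shift (0.04997).

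Klf4 fell with LPS and rose with LPS+zVAD in both genotypes. The WT arrays gave 11.06 and 10.96 untreated, 9.96 and 9.89 with LPS, 13.47 and 14.05 with LPS+zVAD, and 10.76 and 10.73 with LPS+zVAD+Nec-1. The LPS+zVAD arrays were the highest of all 32. The rise was 6.71-fold (log2 2.75, SE 0.42, adjusted p = 2.45e-05). The WT fall with LPS was 2.12-fold (adjusted p = 0.0481) and was not called without any 1 of the 4 arrays (adjusted p = 0.124 to 0.153) nor under 4 of the 8 alternative fits. Klf4 in Ifnar1-/- cells went from 10.90 and 10.61 to 8.46 and 8.32 with LPS, a 5.17-fold fall (log2 -2.37, SE 0.42, adjusted p = 0.00056), and to 12.31 and 11.98 with LPS+zVAD, a 2.62-fold rise (adjusted p = 0.0195) that was not called without either untreated array (adjusted p = 0.0523 and 0.124) or replicate 1 of LPS+zVAD (0.134).

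IFNβ raised Klf4 in WT cells with and without the inhibitors. The levels were 12.21 and 12.93 with IFNβ, 12.29 and 13.03 with IFNβ+zVAD and 12.26 and 12.85 with IFNβ+zVAD+Nec-1, all above every untreated or zVAD array of either genotype. The rises were 2.94-fold (adjusted p = 0.00772), 3.13-fold (0.00478) and 2.92-fold (0.00903). Each was lost without replicate 2 of its own pair (adjusted p = 0.0931, 0.071 and 0.087), and the last also without replicate 2 of untreated (0.0562). Of the Ifnar1-/- cells the IFNβ arrays, 10.88 and 10.61, were at the level of the untreated ones.

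Csf1r fell with LPS and LPS+zVAD+Nec-1 in WT cells on 2 of its 3 probes under both scalings, and the direction of the brightest probe was not settled. The brightest probe was among the brightest on the arrays, with between 0.00718% and 0.226% of probes above it. WT levels were 18.41 and 18.26 untreated and 18.47 and 18.26 with zVAD, and between 17.76 and 18.20 in the 6 stimulated groups, so that all stimulated arrays lay below the 4 others. Of these changes, 2 were called, -0.45 with LPS+zVAD (adjusted p = 0.0198) and -0.46 with LPS+zVAD+Nec-1 (adjusted p = 0.0219). The first was lost without replicate 1 of untreated (adjusted p = 0.127) or replicate 2 of LPS+zVAD (0.165), and the second without replicate 1 of untreated (0.139) or either array of its own pair (0.0767 and 0.0859). With the slide as a block, the other 4 stimulated groups were called as well (adjusted p = 0.0102 with LPS, 0.0181 with IFNβ, 0.0122 with IFNβ+zVAD and 0.0236 with IFNβ+zVAD+Nec-1). With the arrays aligned at their 75th percentile instead, all 6 changes of this probe turned positive, from 0.16 to 0.48, and none was called. The mean of the 3 probes, another alternative, fell in the 4 groups that the brightest probe did not call (-1.06 with LPS, adjusted p = 0.000151; -0.75 with IFNβ, 0.00368; -0.80 with IFNβ+zVAD, 0.00208; -0.71 with IFNβ+zVAD+Nec-1, 0.00644).

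The other 2 Csf1r probes, examined after the values of the first had been seen, fell further. Probe 2 changed by -1.45 with LPS (SE 0.17, adjusted p = 2.47e-06), -1.05 with IFNβ (adjusted p = 8.27e-05) and -1.62 with LPS+zVAD+Nec-1 (adjusted p = 6.73e-07) in WT cells. Under the 75th percentile these were -0.85 (adjusted p = 0.00955), -0.53 (0.111) and -1.14 (0.0011). Probe 3 changed by -1.37 with LPS (adjusted p = 0.00144) and by -0.96 under the 75th percentile (adjusted p = 0.0223). Both kept a negative sign for all 6 stimulated WT groups under both scalings, but only LPS and LPS+zVAD+Nec-1 were called for both probes in both. Probe 2 in Ifnar1-/- cells fell by 0.48 with LPS (adjusted p = 0.0438) and fell by 0.68 with LPS+zVAD (adjusted p = 0.00543). Under the 75th percentile these were -0.12 (adjusted p = 0.811) and -0.31 (0.401). Probe 3 was called in neither comparison (adjusted p = 0.322 and 0.188), so that these 2 calls rest on 1 probe under 1 scaling. Probe 2 was also called for a difference between the genotypes, as the change in Ifnar1-/- minus that in WT cells, with LPS+zVAD+Nec-1 (1.57, adjusted p = 0.000188), IFNβ+zVAD (1.22, 0.00141), LPS (0.97, 0.0169), IFNβ (0.90, 0.0117) and IFNβ+zVAD+Nec-1 (0.71, 0.0448), but for none under the 75th percentile (adjusted p = 0.0622 at the lowest), and probe 3 for none under either scaling. The mean of the probes was called for IFNβ+zVAD (0.87, adjusted p = 0.0258) and LPS+zVAD+Nec-1 (0.98, 0.0134). The probes lie at different places along the gene on mm9 chromosome 18, and they differ in brightness.

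**Figure D3:**
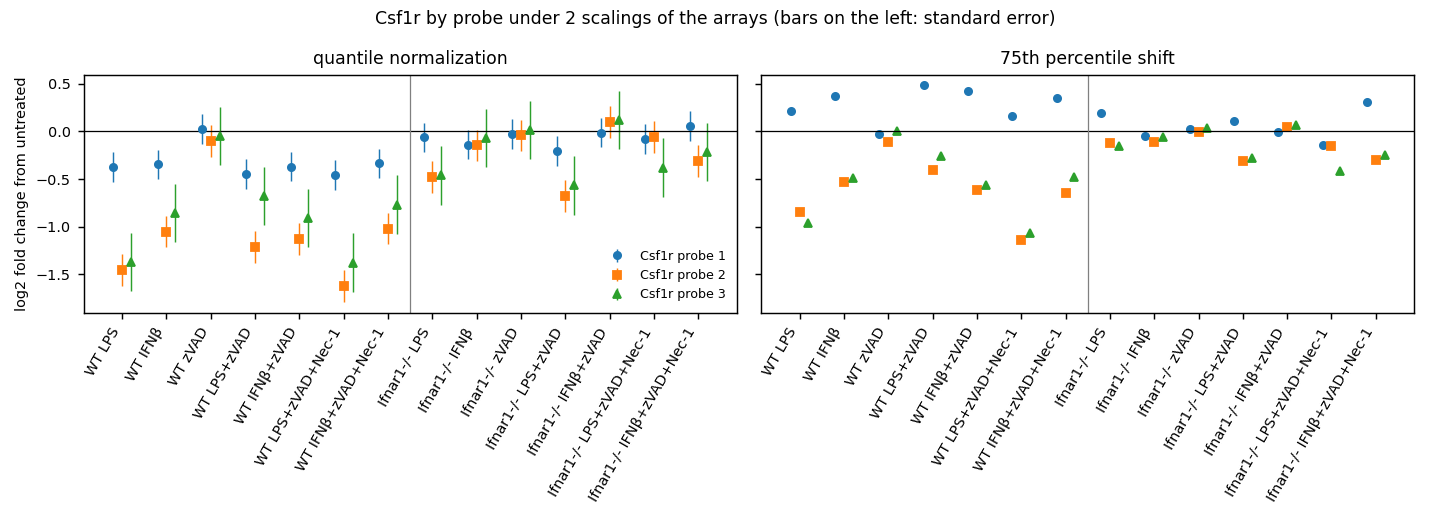
Change from untreated cells (log2) for the 3 Csf1r probes in the 14 treated groups, under quantile normalization on the left, with SE bars, and under the 75th percentile shift on the right. Probe 1 crosses 0 between the scalings in stimulated WT cells, and probes 2 and 3 stay below 0 in those groups.

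Mertk fell with LPS and LPS+zVAD in both genotypes. In Ifnar1-/- cells it went from 12.00 and 11.92 to 8.58 and 8.57 with LPS and to 8.98 and 9.04 with LPS+zVAD. These were the lowest arrays of the 32, and the falls were 10.5-fold (log2 -3.39, SE 0.46, adjusted p = 7.8e-05) and 7.72-fold (log2 -2.95, adjusted p = 0.000156). In WT cells the level went from 12.14 and 12.63 to 10.51 and 9.81 with LPS (4.67-fold, log2 -2.22, SE 0.46, adjusted p = 0.000687) and to 10.76 and 10.83 with LPS+zVAD (3.01-fold, adjusted p = 0.00669; 0.0665 without replicate 2 of untreated). The fall with LPS+zVAD+Nec-1, 2.36-fold on arrays of 11.01 and 11.29 (adjusted p = 0.0363), was not called without any 1 of the 4 arrays (adjusted p = 0.0524 to 0.212) nor under 4 of the 8 alternative fits. With IFNβ the WT arrays, 12.52 and 11.74, overlapped the untreated ones. Those with zVAD alone, 11.3 and 10.8, were both below untreated, and this change of -1.35 was not called.

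The highest Mertk of the series was on 3 of the 4 Ifnar1-/- arrays with Nec-1. The IFNβ+zVAD+Nec-1 arrays averaged 13.96 (SD 0.05, n = 2) and the LPS+zVAD+Nec-1 arrays gave 12.00 and 14.04. The rise with IFNβ+zVAD+Nec-1 was 4.01-fold (SE 0.46 on the log2 scale, adjusted p = 0.0263) and was not called without any 1 of the 4 arrays (adjusted p = 0.0939 to 0.207). In the group that stood apart, the change was 1.06 with both arrays (adjusted p = 0.308), 2.08 without replicate 1 (adjusted p = 0.0140) and 0.04 without replicate 2 (adjusted p = 0.970).

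The addition of zVAD to LPS, and of Nec-1 to both, was then compared directly. In WT cells LPS+zVAD against LPS called 6 of the 9 genes (34.6% of all genes): Klf4, Klf2 and Cebpa were higher and Maf, Cebpd and Spi1 lower. The differences were 14.2-fold for Klf4 (log2 3.83, SE 0.42, adjusted p = 2.26e-06), 3.89-fold for Klf2 (adjusted p = 1.96e-05), 5.65-fold for Maf (adjusted p = 4.39e-05) and 4.76-fold for Cebpd (adjusted p = 0.000158). Those of Spi1 (2.81-fold, adjusted p = 0.000531) and Cebpa (2.62-fold, adjusted p = 0.00227), and that of Maf, were not called when only these 4 arrays were fitted (adjusted p = 0.0571, 0.0856 and 0.0576).

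Nec-1 added to LPS+zVAD called 6 genes in WT cells (28.4% of all genes), with Maf, Cebpd and Spi1 higher and Klf4, Klf2 and Cebpa lower. The LPS+zVAD arrays enter both comparisons with opposite sign, so that the 2 sets of values are not independent. Klf4 was 8.06-fold lower with Nec-1 (adjusted p = 4.14e-05), Klf2 3.11-fold lower (0.000169) and Cebpa 1.93-fold lower (0.0329), while Maf was 6.22-fold higher (4.08e-05), Cebpd 3.09-fold higher (0.00324) and Spi1 2.48-fold higher (0.00205). None of the 6 was called when only the 4 arrays compared were fitted (adjusted p = 0.0505 to 0.135). Without replicate 2 of LPS+zVAD, Spi1 (adjusted p = 0.053), Cebpd (0.0752) and Cebpa (0.279) were not called, and without replicate 1 of LPS+zVAD+Nec-1 Cebpa was not (0.215).

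LPS+zVAD against LPS called 4 genes in Ifnar1-/- cells (8.25% of all genes). Klf2 was 23.5-fold higher (log2 4.55, SE 0.27, adjusted p = 1.57e-08) and Klf4 13.6-fold higher (log2 3.76, SE 0.42, adjusted p = 2.32e-05). Maf was 3.25-fold lower (adjusted p = 0.00703) and Cebpd 3.14-fold lower (adjusted p = 0.0104). Maf was not called without replicate 2 of LPS (adjusted p = 0.082) or replicate 1 of LPS+zVAD (0.0915), and Cebpd not without any 1 of the 4 arrays (0.0567 to 0.0959). Nec-1 added to LPS+zVAD called 5 (18.8%), with Mertk 16.1-fold, Maf 3.82-fold and Cebpa 2.89-fold higher and Klf2 8.71-fold and Klf4 3.72-fold lower. None of these 5 was called when only the 4 arrays compared were fitted (adjusted p = 0.163 to 0.322). Of the 5, Mertk, Maf and Klf2 were also called without either array of the pair that stood apart. Klf4 was not called without its replicate 1 (adjusted p = 0.0525) or without replicate 1 of LPS+zVAD (0.0611), nor Cebpa without its replicate 2 (0.0767). Cebpb, at -0.87, was not called (adjusted p = 0.0761; 0.0156 with the slide as a block).

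With IFNβ in place of LPS the inhibitors called none of the 9 genes in WT cells and 1 in Ifnar1-/- cells. In WT cells IFNβ+zVAD against IFNβ called none of the 9, with none at an unadjusted p under 0.05 (0% of all genes), and the differences lay between -0.54 and 0.38. Nec-1 added to IFNβ+zVAD called none either, with none at an unadjusted p under 0.05 (0%), and differences between -0.10 and 0.33. In Ifnar1-/- cells IFNβ+zVAD against IFNβ called none, with none at an unadjusted p under 0.05 (0.00623%). Nec-1 added to IFNβ+zVAD called 1 (1.58%), Mertk, with 3 at an unadjusted p under 0.05. Mertk was 6.7-fold higher (adjusted p = 0.00402). It was not called with only the arrays compared (0.0552) or without replicate 1 of the IFNβ+zVAD+Nec-1 pair (log2 2.71). Spi1, at -0.85, was not called, but was without the pair that stood apart (adjusted p = 0.0267).

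**Figure D4:**
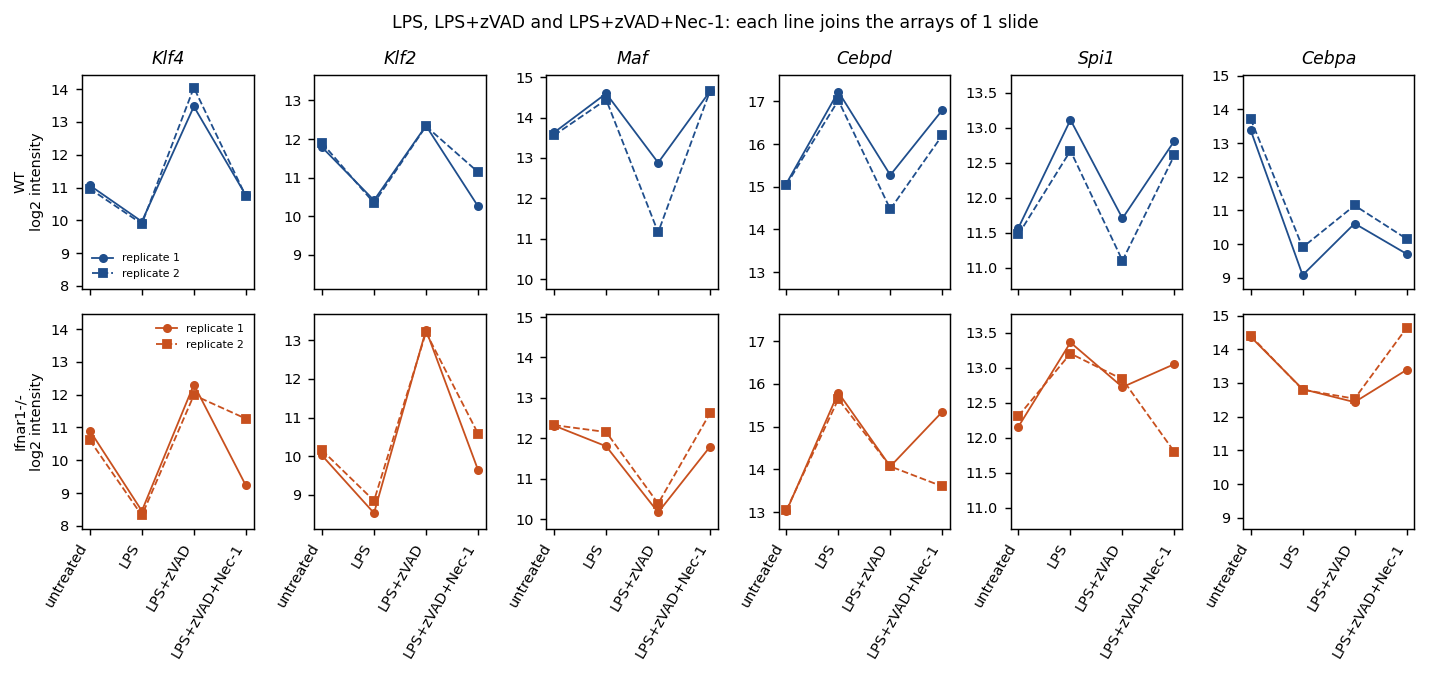
Levels of 6 genes (log2 intensity) in untreated cells and with LPS, LPS+zVAD and LPS+zVAD+Nec-1, in WT on top and Ifnar1-/- below, each line joining the arrays of 1 slide. Klf4 and Klf2 peak with LPS+zVAD in all 4 lines, at 13.47 and 14.05 for Klf4 in WT, and Maf is lowest there.

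Whether a change differed between the genotypes was tested as the change in Ifnar1-/- cells minus that in WT cells. Cebpa differed in 5 of the 7 treatments. The difference was 2.48 with LPS (5.58-fold, SE 0.45, adjusted p = 0.00226), 2.97 with IFNβ (adjusted p = 0.000148), 3.06 with IFNβ+zVAD (adjusted p = 0.000126), 3.24 with LPS+zVAD+Nec-1 (adjusted p = 0.000104) and 3.34 with IFNβ+zVAD+Nec-1 (adjusted p = 5.54e-05). In each, the gene fell less or did not fall in Ifnar1-/- cells, and the 5 calls were kept under every alternative and without any 1 array. With LPS+zVAD the difference was 0.77 and was not called (adjusted p = 0.29).

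With LPS, Cebpa was the 1 gene of the 9 called for a difference (6.63% of all genes), and likewise with IFNβ (18.8%), each gene by its brightest probe. Klf4 with LPS, at -1.29 (adjusted p = 0.244), was called without the pair that stood apart (0.0378) and with only the arrays compared (0.0381), and Maf, at -1.26 (0.179), with only the arrays compared (0.0439). With zVAD none was called and none had an unadjusted p under 0.05 (0%). With LPS+zVAD 1 was called (16.1%), Klf2, whose rise in Ifnar1-/- cells exceeded the WT change by 2.66 (6.31-fold, SE 0.38, adjusted p = 0.000134). Without the pair that stood apart, Cebpd (1.22, adjusted p = 0.0231), Klf4 (-1.36, 0.0163) and Mertk (-1.36, 0.0399) were called as well, the last 2 also with only the arrays compared (0.0475 and 0.0267). With IFNβ+zVAD 2 were called (19.3%), Cebpa and Klf4, the latter at -1.82 (SE 0.60, adjusted p = 0.0401), a call that was lost without 7 of the 8 arrays left out in turn (adjusted p = 0.0634 to 0.154) and under 3 of the 8 alternative fits. Cebpd gave 1.35 there (adjusted p = 0.0889) and was called without the pair that stood apart (0.0114) and with only the arrays compared (0.0105). The Klf4 difference with IFNβ, -1.57, was not called (adjusted p = 0.0773), but was with the slide as a block (0.0487), without the pair that stood apart (0.00559) and with only the arrays compared (0.0326).

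With Nec-1 present, Mertk also differed between the genotypes. With LPS+zVAD+Nec-1 3 genes were called (17.8% of all genes), Cebpa, Mertk at 2.30 (4.94-fold, SE 0.65, adjusted p = 0.0179) and Klf2 at 1.17 (2.25-fold, adjusted p = 0.0391). Without replicate 2 of the Ifnar1-/- group Mertk gave 1.28 and Klf2 0.70, neither of which was called, while Cebpa gave 2.62. Mertk was also lost without replicate 2 of untreated WT (0.0792), replicate 2 of untreated Ifnar1-/- (0.0525) or replicate 1 of the WT treated pair (0.0661), and Klf2 without any 1 untreated array (0.0696 to 0.119) or replicate 1 of the WT treated pair (0.231). With only the arrays compared, Mertk (0.185) and Klf2 (0.287) were not called, and Klf2 was not called with the 75th percentile shift (0.130) or with no filter on dim probes (0.0676) either. Spi1 (-1.26, adjusted p = 0.0385) and Maf (-1.65, 0.0454) were called with the 75th percentile shift. Without replicate 1 of the Ifnar1-/- group, the differences were 3.87 for Cebpa, 3.33 for Mertk, 1.64 for Klf2 and -1.63 for Spi1. Cebpb gave -1.45, Cebpd -0.87, Maf -0.76, Klf4 0.77 and Csf1r 0.40. With IFNβ+zVAD+Nec-1 2 were called (18.2%), Cebpa and Mertk, the latter at 2.59 (6-fold, SE 0.65, adjusted p = 0.00894), and both were kept under every alternative and without any 1 array. Spi1 gave -1.13 there, which was not called (adjusted p = 0.0635), but was under 4 alternatives (0.0346 with the slide as a block, 0.0469 with the 75th percentile shift, 0.00883 without the pair that stood apart and 0.0287 with only the arrays compared). Cebpd gave 1.33 (adjusted p = 0.0995), called under the last 2 of these (0.0130 and 0.0304).

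**Figure D5:**
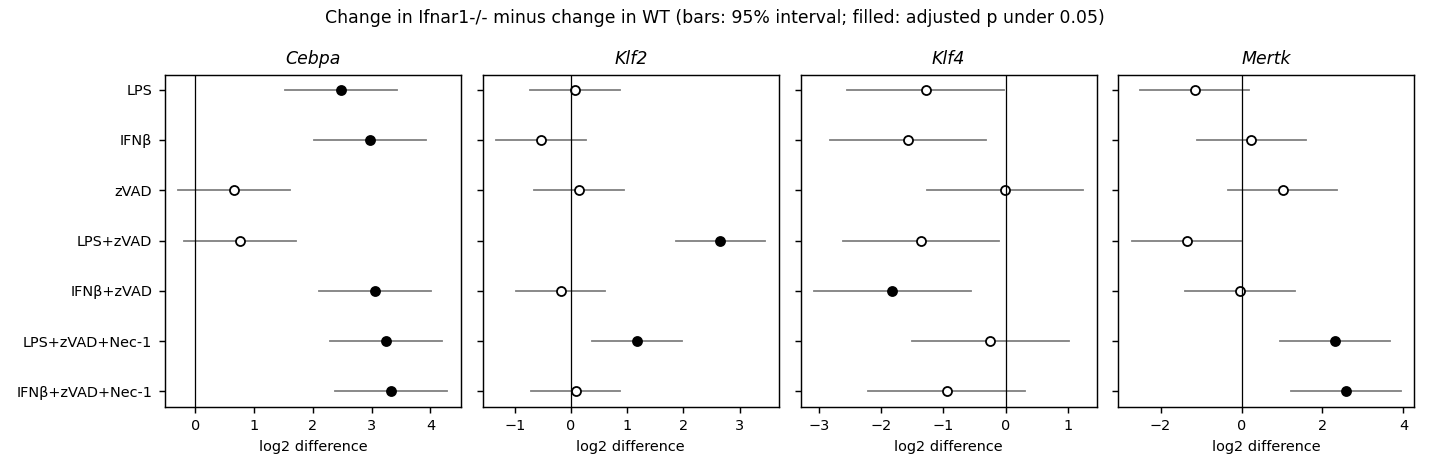
Change in Ifnar1-/- cells minus change in WT cells (log2) for 4 genes and 7 treatments, with 95% intervals and filled points where the difference was called. Cebpa lies between 2.48 and 3.34 in 5 treatments, and Klf2 stands out with LPS+zVAD at 2.66.

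Without treatment, 3 of the 9 genes were lower in Ifnar1-/- than in WT cells (8.73% of all genes). Cebpd was 13.02 and 13.04 against 15.07 and 15.04, 4.08-fold lower (log2 -2.03, SE 0.38, adjusted p = 0.00205). Klf2 was 10.02 and 10.15 against 11.79 and 11.90, 3.38-fold lower (adjusted p = 0.000315). Maf was 12.31 and 12.33 against 13.63 and 13.56, 2.42-fold lower (adjusted p = 0.0375), which was not called without any 1 of the 4 arrays (adjusted p = 0.158 to 0.164) nor with the mean of both probes (0.204), the 75th percentile shift (0.0593) or no filter on dim probes (0.0633). The second Maf probe gave -0.60 (adjusted p = 0.577). Cebpa and Csf1r, at 0.84 and -0.38, were called with the slide as a block (adjusted p = 0.0248 and 0.0265). The block takes the difference between the 2 slides of a genotype out of the spread, and the genotypes lie on different slides. These 2 p-values therefore leave out a spread that this comparison carries. Without the pair that stood apart, Spi1 (0.71, adjusted p = 0.0302) and Cebpa (adjusted p = 0.0381) were called. Genotype and slide cannot be told apart here. The WT slides were scanned on days 1 and 2 and both Ifnar1-/- slides on day 3, so that genotype and scan day cannot be either. The summed level of 5 stromal marker genes also separated the genotypes, at 8.85 to 11.15 on WT and 11.20 to 13.09 on Ifnar1-/- arrays. Of 8 neutrophil genes, the sum of which overlapped, Ngp was 6.3 to 9.66 on WT and 11.05 to 12.5 on Ifnar1-/- arrays. Ltf was 6.39 to 10.6 against 10.8 to 12.2, and Ly6g went the other way, at 6.81 to 12.3 against 2.75 to 5.14. The part of these markers in the differences was not tested. In bulk RNA, fewer cells of a type and less RNA per cell cannot be told apart.

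Related genes were read as lists. Of 18 measured genes of colony-stimulating factor ligands, receptors and adaptors, 4 were called higher and 2 lower with LPS in WT cells, 2 and 1 with IFNβ, and 4 and 7 with LPS+zVAD. Over all genes the shares called higher and lower were 16.3% and 24.8% with LPS, 13.7% and 21.6% with IFNβ, and 18.3% and 32.7% with LPS+zVAD, and the counts of this list and of the 3 lists below are to be read against them. Csf1, which encodes M-CSF, the ligand of CSF1R, rose by 3.58 with LPS (SE 0.44, adjusted p = 5.08e-06), 5.61 with IFNβ and 5.96 with LPS+zVAD in WT cells, and by 2.65 with LPS and 3.78 with LPS+zVAD in Ifnar1-/- cells. In Ifnar1-/- cells given IFNβ its change was -0.07. Inpp5d, the phosphatase SHIP1, fell by 2.51 with LPS and fell by 3.38 with LPS+zVAD in WT cells, and Lyn, a Src family kinase, rose by 3.13 with LPS. The list's median change with LPS was 0.29, beside -0.08 over all genes.

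Of 17 genes of the TAM receptors and of apoptotic cell uptake other than Mertk, 3 were called higher and 6 lower with LPS in WT cells, 3 and 6 with IFNβ and 4 and 5 with LPS+zVAD, beside 41.2%, 35.3% and 50.9% of all genes called in either direction. Gas6, a ligand of MerTK, fell by 2.55 with LPS in WT (adjusted p = 0.00465) and fell by 2.63 in Ifnar1-/- cells (adjusted p = 0.00697). Tyro3, a TAM receptor like MerTK, rose by 1.60 with LPS (adjusted p = 0.00192) and by 3.68 with LPS+zVAD in WT cells. Timd4, a phosphatidylserine receptor, rose by 3.18 with IFNβ in WT cells (adjusted p = 0.00754). The median of the list with LPS was -0.06 in WT and -0.31 in Ifnar1-/- cells, beside -0.08 and -0.06 over all genes.

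Of 33 other measured transcription factors of the myeloid lineage, 9 were called higher and 8 lower with LPS in WT cells, 8 and 1 with IFNβ, and 15 and 7 with LPS+zVAD, beside the same shares of all genes (41.2%, 35.3% and 50.9%). Ets2, an Ets factor like PU.1, rose by 4.42 with LPS, 3.45 with IFNβ and 4.40 with LPS+zVAD. Irf4, an interferon regulatory factor, fell by 3.93 with LPS in WT cells (adjusted p = 0.000107) and changed by 0.59 in Ifnar1-/- cells, which was not called. Gfi1, a transcriptional repressor, was at 13.3 with LPS against 3.19 in untreated WT cells (adjusted p = 0.000137), where 1 of 2 arrays measured it above background. With LPS+zVAD the median of the list was 0.73, beside -0.15 over all genes.

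Of 23 macrophage marker genes, 5 were called higher and 7 lower with LPS in WT cells, 3 and 5 with IFNβ, and 1 and 11 with LPS+zVAD, where the median was -0.43, beside -0.15 over all genes. In these comparisons 41.2%, 35.3% and 50.9% of all genes were called. Msr1, a scavenger receptor, rose by 3.54 with LPS and 1.60 with IFNβ. Cx3cr1, the fractalkine receptor, fell by 3.58 with IFNβ and fell by 4.30 with LPS+zVAD and changed by -1.20 with LPS, which was not called (adjusted p = 0.257). Marco, another scavenger receptor, rose by 4.86 with LPS in WT (adjusted p = 0.023) and by 8.39 in Ifnar1-/- cells (adjusted p = 0.00108). In Ifnar1-/- cells given IFNβ none of the genes of the 4 lists was called in limma, and neither was any other gene tested (0% of all genes).

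Over the 16 group means, the genes with the pattern most like that of each of the 9 were found by Pearson's r, as a description of groups that share slides. For Cebpa these were Kif20b (r = 0.991), Gm10687 (0.989) and Scamp5 (0.988), for Klf4 Fgfbp3 (0.973), Zfyve26 (0.958) and Trio (0.957), and for Klf2 Rara (0.866), Trib3 (0.866) and Klf4 (0.865). For Spi1 they were Pmpca (0.966), Lzic (0.936) and Micall2 (0.928), and for Cebpb Mybpc3 (0.968), Ubqln1 (0.963) and Spata5l1 (0.953). Cebpd was closest to Itgal (0.952), Smap1 (0.938) and Ebi3 (0.919), and Maf to C230096K16Rik (0.903), Tbrg1 (0.902) and Rnpepl1 (0.894). Csf1r was closest to Crebzf (0.924), Gm4889 (0.922) and Ndrg2 (0.901), and Mertk to Cyth1 (0.918), Sult1a1 (0.891) and Snrnp200 (0.877). Among the 9 genes themselves the pair most alike was Klf2 and Klf4, and the pair most opposed was Cebpa and Cebpd (r = -0.679).

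The order of the conditions had 2 resolved steps of 7 in one genotype for Cebpa, Klf4, Klf2 and Mertk, and at most 1 in the other (Mertk 0). The means of Mertk in Ifnar1-/- cells spanned 5.39, from 8.57 with LPS to 13.96 with IFNβ+zVAD+Nec-1, with the pair that stood apart (12.00 and 14.04) entering by its mean, and those of Klf2 spanned 4.55, from 8.69 with LPS to 13.24 with LPS+zVAD. A step counts as resolved where it exceeds the 95% half-width of a difference (0.958 for Mertk, 0.564 for Klf2). This half-width is not adjusted for the number of genes or steps, and the order came from the same means. Resolved steps therefore include differences that were not called above. Among them are Cebpa between untreated and zVAD in WT cells (0.88) and Mertk between LPS+zVAD+Nec-1 and untreated in Ifnar1-/- cells (1.06). Cebpa in WT cells spanned 4.06, from 9.49 with LPS to 13.55 untreated (half-width 0.673). Klf4 in WT cells spanned 3.83, from 9.93 with LPS to 13.76 with LPS+zVAD (half-width 0.890). Cebpd had 1 resolved step in each genotype. For Csf1r in Ifnar1-/- cells the whole span, 0.26, was under the half-width of 0.321.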

How the data were processed

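RNA of 32 BMDM cultures was labelled with Cy3, and each sample was run on an Agilent mouse array with 55681 probes. The deposited scanner files hold each spot's intensity from Agilent Feature Extraction 11.5.1.1, with probe positions on mm9, and the authors also deposited a table of processed log2 values, used here only as an alternative. Per the labels, limma was used by the authors. No column of the tables used was left without a sample.

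From gProcessedSignal, control spots and outlier-flagged spots were left out, log2 values were quantile-normalized, probes well above background on at least 50% of arrays were kept, and the brightest probe stood for a gene, which gave 16051 genes. limma 3.58.1 (R 4.3.3) was fitted with a mean for each of the 16 groups (16 residual degrees of freedom), with Benjamini-Hochberg adjustment within each of 30 comparisons: treatment against untreated in each genotype, the difference of these changes between genotypes, an inhibitor added to a stimulus, and the genotypes without treatment. The precision is limited by 2 arrays per group. Arrays with 1 replicate number and genotype shared a slide, and the deviations from group means of all 28 such pairs in each genotype correlated above 0.1 (0.317 to 0.670 in WT, 0.169 to 0.578 in Ifnar1-/-), so that the slide was also used as a block.

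The 8 alternative fits were the 75th percentile shift, normexp background correction (offset 50), no filter on dim probes, the slide as a block, the series without the Ifnar1-/- LPS+zVAD+Nec-1 pair, the mean of a gene's probes, the authors' processed values (14438 genes with a value in every group) and only the arrays compared; each array was also left out in turn, which leaves a group with 1 array that is assumed to vary like the other groups. The 9 genes and the lists were chosen with earlier results of these data known. From each of the 4 other lists, the 3 genes with the largest change among those called with LPS, IFNβ or LPS+zVAD in WT cells were named, and for each of the 9 genes the 3 genes most like it by Pearson's r over the 16 group means. Marker lists of other cell types were summed per array, with these ranges over WT and Ifnar1-/- arrays: neutrophil (8 genes) 13.1 to 14.4 and 14.0 to 14.7, B cell (5) 8.79 to 10.3 and 9.41 to 10.5, T cell (3) 10.3 to 14.2 and 10.4 to 11.3 (higher with stimulation in WT), dendritic cell (3) 15.7 to 16.4 and 15.2 to 16.0, and erythroid (1) 5.46 to 7.05 and 5.55 to 6.68; no mast cell marker was kept.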

Additional observations from a re-analysis of the deposited data

Results flagged for a closer look

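Over all genes, the share called for a difference between the genotypes in the change with a treatment ran from 0% with zVAD to 19.3% with IFNβ+zVAD. For these genes that change differed, by the test of the difference itself in limma, in 10 of 63 tests. The values are the change in Ifnar1-/- cells minus the change in WT cells on the log2 scale. Cebpa gave 2.48 with LPS, 2.97 with IFNβ, 3.06 with IFNβ+zVAD, 3.24 with LPS+zVAD+Nec-1 and 3.34 with IFNβ+zVAD+Nec-1. Klf2 gave 2.66 with LPS+zVAD and 1.17 with LPS+zVAD+Nec-1. Klf4 gave -1.82 with IFNβ+zVAD, a call that was lost under some alternative fits and without most single arrays, as given above. Mertk gave 2.30 with LPS+zVAD+Nec-1 and 2.59 with IFNβ+zVAD+Nec-1. The values with LPS+zVAD+Nec-1 rest on the Ifnar1-/- pair whose 2 arrays stood apart from each other.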

How the results depend on the processing

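Over all genes the share called ran from 0% to 50.9% between the 30 comparisons, and calls kept or lost were counted only for the 9 genes. Of 270 tests of the 9 genes, 80 were called. Of these, 51 were kept under every alternative fit, 49 without each array in turn, and 40 under both. The slide as a replicate block lost 0 calls and gained 15, of which 2 were among the genotypes without treatment (5 genes in place of 3). For these 2 the block leaves out the spread between slides, as given above. Those gained are given beside their results, and the block changed no other call. Fitting only the arrays compared lost 23 calls: 3 were left of 12 for an inhibitor added in WT cells and 4 of 10 in Ifnar1-/- cells. Few arrays then estimate the spread, and the part of this in the losses was not tested. The differences between genotypes rose from 10 to 16 in this setting. Without the Ifnar1-/- LPS+zVAD+Nec-1 pair, 15 such differences and 5 differences without treatment were called. The 75th percentile shift lost 8 calls and normexp 3. With each array left out in turn, the calls ranged from 24 to 33 for WT treatments (30 with all), 11 to 20 for Ifnar1-/- treatments (15), 7 to 20 for differences between genotypes, 9 to 12 and 7 to 12 for added inhibitors in WT and Ifnar1-/- cells, and were 2 without treatment. The fewest for WT were without replicate 1 of untreated WT, and the most for Ifnar1-/- without replicate 2 of LPS+zVAD+Nec-1. Under the 75th percentile shift Csf1r turned to 0.21 with LPS, 0.37 with IFNβ, 0.48 with LPS+zVAD, 0.42 with IFNβ+zVAD, 0.16 with LPS+zVAD+Nec-1 and 0.36 with IFNβ+zVAD+Nec-1 in WT cells, and to -0.43 with IFNβ+zVAD and -0.30 with LPS+zVAD+Nec-1 for the difference between genotypes; over all genes, the median change differed by over 0.1 between these scalings in 15 of 30 comparisons (-0.170 to 0.162 with quantile normalization, -0.110 to 0.124 with the shift). The second Maf probe alone, chosen after seeing the data, gave -0.24 with LPS+zVAD+Nec-1 in WT cells and -0.22 under the shift. Other causes were not tested.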
